A study of Mus musculus with 4 samples.

Results

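The Ly6 gene cluster of mouse chromosome 15 was followed in hearts at birth through 9 of its genes, Lynx1, Ly6e, Ly6a, Ly6c1, Ly6d, Ly6h, Ly6k, Lypd2 and Slurp1. They were chosen by symbol and position, out of 43346 gene identifiers in the count files, because Lynx1 had already been seen to be lower in these same hearts and because the cluster lies near Mrtfa, one of the targeted genes. All 9 had a row in the files. The values of Lynx1 are therefore given as a description, with no test. The question for the other 8 genes was whether any of them changed together with it.

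RNA was sequenced from P0 hearts, that is, hearts from the day of birth. The MRTFA/B double knockout group held 2 libraries, labelled with a mixed strain background, and the WT group held 2 libraries, labelled ICR. MRTFA and MRTFB are coactivators of serum response factor. The labels do not say how the knockout alleles were made, in which cells they were lost, or whether each library came from its own animal, so a p-value here measures how the libraries varied, which can be technical variation. Genotype and strain background differ together between the groups and cannot be told apart. Total counts were 27328195 and 16175259 in the double knockout libraries, against 29460641 and 25205257 in the WT libraries. Levels are CPM, that is, counts scaled to a common library total with edgeR's TMM factors. Mrtfa itself was at 3.35 and 2.26 CPM in double knockout hearts, against 9.06 and 11.1 CPM in WT hearts (adjusted p = 0.12 by edgeR and 1.25e-05 by DESeq2). Mrtfb was at 46.0 and 49.6 CPM in double knockout hearts, against 46.9 and 56.8 CPM in WT hearts, and counts over a whole gene can include exons outside a deleted stretch. The 9 cardiomyocyte markers were all read, and together they reached 46390 and 42230 CPM in double knockout hearts, against 60840 and 55540 CPM in WT hearts. Of the 9, 8 had a negative log2 fold change and 6 were lower with no overlap, as 25.2% of tested genes were. EdgeR called 0 of them, beside 0.075% of tested genes, and DESeq2 called 1, beside 3.32% of tested genes. That gene was Actc1, cardiac alpha-actin, at 6688 and 6282 CPM in double knockout hearts, against 17540 and 12640 CPM in WT hearts (log2 fold change -1.22, SE 0.185; DESeq2 adjusted p = 1.11e-06; edgeR adjusted p = 0.121).

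Ly6 proteins are small and share a fold of disulfide-bonded loops, the one also found in snake neurotoxins. Most are held on the outer cell surface by a lipid anchor, and a few, such as SLURP1, are secreted. LYNX1 is known from the brain, where it binds nicotinic acetylcholine receptors and dampens their response. Other members mark blood, lymphoid or endothelial cells, and several respond to interferon.

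In genome order the cluster runs from Psca to Gpihbp1 over 0.885 Mb (mm10), and Lynx1 (ENSMUSG00000022594, minus strand, chromosome 15, 74747852 to 74753046) starts 6.26 Mb from the start coordinate of Mrtfa. All distances from Lynx1 are given between start coordinates, not as gaps between genes. Slurp1 lies 23.5 kb and Lypd2 15.6 kb on the side of lower coordinates. On the other side Ly6d lies 14.2 kb away, Ly6k 49.0 kb, Ly6e 207.2 kb, Ly6a 247.0 kb, Ly6c1 296.2 kb and Ly6h 803.4 kb.

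Lynx1 was barely read in double knockout hearts. Its counts were 62 and 52 in the double knockout libraries, against 2174 and 2949 in the WT libraries. On the scaled levels that was 2.19 and 3.18 CPM in double knockout hearts, against 76.6 and 118.5 CPM in WT hearts. The groups lay far apart, and within WT the second library was the higher one. The mean was 2.68 ± 0.703 CPM in double knockout hearts and 97.6 ± 29.6 CPM in WT hearts (SD, n = 2 each), a log2 fold change of -5.22 (SE 0.315), or 37.2-fold lower. Among all 16009 tested genes, this was number 11 from the bottom by log2 fold change. Among the 11153 tested genes with a mean of at least 5 CPM, it was number 3. No other gene's exons overlap those of Lynx1, and no transcript of another gene aligned to its longest transcript at 80% identity or more. In a bulk sample, fewer cells of a type and less RNA per cell cannot be told apart.

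Per kilobase of exon, Lynx1 was the leading gene of the cluster in WT hearts and the last of the tested ones in double knockout hearts. In CPM not divided by length, it lay above Psca in double knockout hearts, where Psca had 0.705 and 1.41 CPM. Per kilobase, the level of Lynx1 was 0.576 ± 0.151 CPM in double knockout hearts and 20.9 ± 6.36 CPM in WT hearts (SD, n = 2 each). In WT hearts the order of levels per kilobase below it was Gpihbp1 at 12.2, Ly6e at 10.6, Ly6c1 at 6.50, Ly6a at 3.01 and Psca at 0.287 CPM. The ranges of Gpihbp1 (11.3 to 13.2) and Ly6e (9.52 to 11.7) overlapped there, while Lynx1 (16.4 to 25.4) lay above both. In double knockout hearts Gpihbp1 led with 13.2 CPM per kilobase, and Ly6e at 9.89 and Ly6c1 at 9.37 overlapped. Ly6a stood at 3.39 and Psca at 1.23 CPM per kilobase, and the Lynx1 range of 0.469 to 0.682 lay below that of Psca, at 0.820 to 1.64.

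Of all reads counted over the 9 genes, Lynx1 held 4.05% (Wilson 95% interval 3.17% to 5.15%) and 4.79% (3.67% to 6.23%) in the double knockout libraries, against 60.6% (59.0% to 62.2%) and 66.0% (64.6% to 67.4%) in the WT libraries. These intervals cover counting error only. The other 8 genes summed to 51.8 and 63.3 CPM in double knockout hearts, against 49.9 and 61.0 CPM in WT hearts. Those sums overlapped between the groups.

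**Figure D1:**
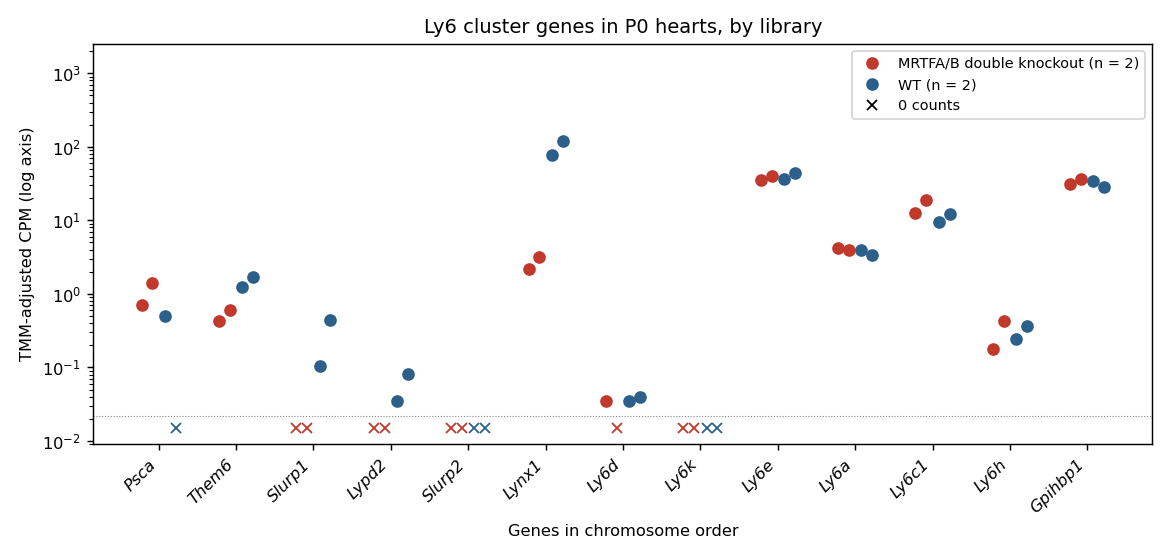
Level of each gene in TMM-adjusted CPM on a log axis, in chromosome order; each point is 1 library and crosses mark 0 counts. Lynx1 has 2.19 and 3.18 CPM in double knockout hearts and 76.6 and 118.5 CPM in WT hearts, while the points of Ly6e, Ly6a, Ly6c1 and Gpihbp1 overlap or lie close together.

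Only 4 of the 9 genes, Lynx1, Ly6e, Ly6a and Ly6c1, had enough reads for the test, and Ly6e, Ly6a and Ly6c1 did not pass it. With edgeR's quasi-likelihood test over 16009 genes, 0.075% passed an adjusted p of 0.05. Of Ly6e, Ly6a and Ly6c1, 0 passed in edgeR, 0 had an unadjusted p under 0.05, which 17.3% of tested genes reached, and 0 passed in DESeq2, which called 3.32% of tested genes.

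Ly6e (chromosome 15, 74955051 to 74959905), an interferon-induced surface protein that restricts entry of some viruses, was the most abundant of these 3 in CPM. It was at 34.9 and 40.0 CPM in double knockout hearts, against 36.0 and 44.4 CPM in WT hearts. The groups overlapped. The log2 fold change was -0.10 (SE 0.151), with a 95% interval of -0.48 to 0.27 and an adjusted p of 0.761 by edgeR. As a fold, that interval runs from 0.719 to 1.20.

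Ly6a (chromosome 15, 74994877 to 74998031) encodes stem cell antigen 1, a marker of blood-forming and some endothelial cells. Its levels were 4.20 and 3.98 CPM in double knockout hearts, against 3.91 and 3.34 CPM in WT hearts. Both double knockout libraries lay just above both WT libraries, as in 25.8% of tested genes. The log2 fold change was 0.17 (SE 0.223), with a 95% interval of -0.37 to 0.72 and an adjusted p of 0.727 by edgeR.

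Ly6c1 (chromosome 15, 75044018 to 75048830), a surface antigen of endothelial and myeloid cells, was at 12.5 and 18.9 CPM in double knockout hearts, against 9.52 and 12.3 CPM in WT hearts. The lowest double knockout library was barely above the highest WT library. The log2 fold change was 0.52 (SE 0.25), with a 95% interval of -0.09 to 1.13 and an adjusted p of 0.352 by edgeR. This value moved with the library left out. Without double knockout library 1 the log2 fold change was 0.79, and without double knockout library 2 it was 0.20. Leaving out a WT library gave 0.34 without WT library 1 and 0.70 without WT library 2.

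Gpihbp1 and Psca, the other cluster genes with enough reads, did not pass either. Gpihbp1 (chromosome 15, 75596628 to 75599481) carries lipoprotein lipase to the lumen of capillaries. It was at 31.0 and 36.3 CPM in double knockout hearts, against 33.8 and 28.8 CPM in WT hearts (log2 fold change 0.10, SE 0.148; edgeR adjusted p = 0.757). Its groups overlapped, and its 95% interval ran from -0.26 to 0.47 on the log2 scale. Psca, named prostate stem cell antigen, had 20 and 23 counts in the double knockout libraries, against 14 and 0 counts in the WT libraries. The WT libraries differed so much from each other that its 95% interval spanned -0.64 to 4.55 on the log2 scale (edgeR adjusted p = 0.397).

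**Figure D2:**
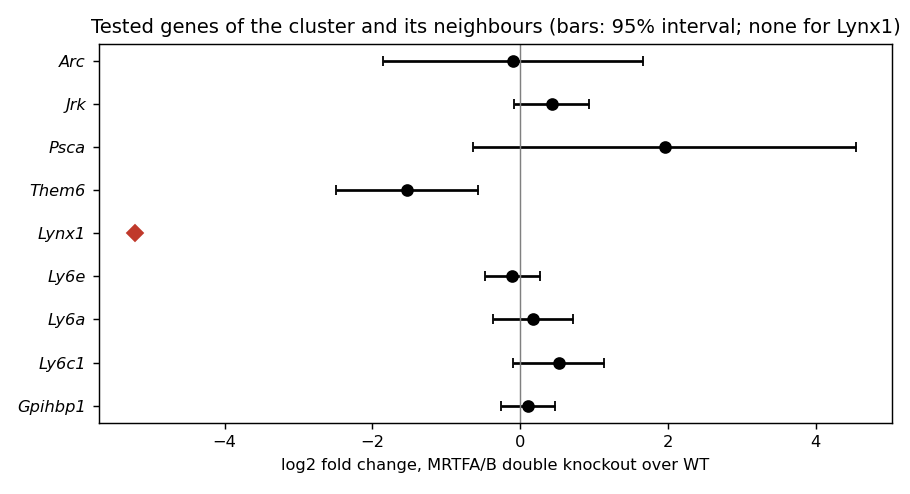
Log2 fold change, double knockout over WT, of the tested cluster genes and their tested neighbours, with 95% intervals from edgeR as bars; Lynx1 is shown with no interval. Ly6e, Ly6a, Ly6c1 and Gpihbp1 straddle 0, and Them6 lies at -1.53, between 0 and Lynx1.

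The secreted and epithelial members were at the edge of detection. Slurp1, a secreted keratinocyte protein whose loss causes a thickened-skin disease in humans, had 0 and 0 counts in the double knockout libraries, against 3 and 11 counts in the WT libraries. Set against a floor of 3 counts over the double knockout group, 0.0671 CPM, its WT mean of 0.274 CPM was 4.08-fold higher. That is no firm bound, since the WT libraries stood at 0.106 and 0.442 CPM. Lypd2 had 0 and 0 counts in the double knockout libraries, against 1 and 2 in the WT libraries, too few for a fold. Both genes stood below the count filter. An exact permutation test of 2 against 2 libraries cannot give a two-sided p under 0.333 for any gene, so it cannot decide here. Without the filter edgeR called Slurp1 (adjusted p = 0.0147), in a fit that called 1514 of 24928 genes. Counts this low do not settle whether either gene differed.

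Slurp1 overlaps the neighbouring gene Them6 on the opposite strand over 322 exon bases. No source used here gives the strand setting of the counting, and reads there cannot be split between these genes with certainty. Them6 encodes a protein of the thioesterase superfamily and lies 26.6 kb from Lynx1. It had 12 and 10 counts in the double knockout libraries, against 35 and 42 counts in the WT libraries. That is 0.423 and 0.612 CPM in double knockout hearts, against 1.23 and 1.69 CPM in WT hearts, with no overlap; 25.2% of tested genes were lower in this way. Its log2 fold change was -1.53 (SE 0.393), with a 95% interval of -2.49 to -0.56, and it did not pass over all genes (edgeR adjusted p = 0.171). With 1 library left out, its log2 fold change ran from -1.77 (without double knockout library 2) to -1.24 (without double knockout library 1). With the Them6 counts added to those of Slurp1, the sum gave a log2 fold change of -1.77 (edgeR adjusted p = 0.159).

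Ly6d, a marker of early B-lineage cells and of stratified epithelium, had 1 and 0 counts in the double knockout libraries, against 1 and 1 in the WT libraries. Ly6h, a neuronal member, had 5 and 7 counts in the double knockout libraries, against 7 and 9 in the WT libraries. Ly6k, a testis gene needed for sperm function, had 0 counts in all 4 libraries. Slurp2, the gene next to Lynx1, with start coordinates 5.1 kb apart, also had 0 counts in all 4 libraries. Differences in these genes were not detectable at this depth, where 3 counts in 1 library correspond to 0.106 to 0.184 CPM.

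Of 18 further symbols listed for the cluster, 14 had a row in the files. Of these, 2 were tested, Psca and Gpihbp1, 12 stayed under 10 counts in every library, and 7 had no read at all. Ly6g, the neutrophil antigen, had 2 and 0 counts in the double knockout libraries, against 1 and 2 in the WT libraries. Ly6c2, the close copy of Ly6c1, had 2 and 2 counts in the double knockout libraries, against 2 and 0 in the WT libraries. Ly6i had 0 and 0 counts in the double knockout libraries, against 1 and 1 in the WT libraries.

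Ly6c1 and Ly6c2 transcripts are 97.6% identical over 822 bases, so reads of Ly6c2 could have been counted to Ly6c1 or dropped, and the level of Ly6c1 is uncertain to that extent. Ly6a is 85.6% identical to Ly6i over 804 bases. The sequence before the start is less alike in the Ly6c pair, 75.9% identical over 216 aligned bases. It is printed because the counts assigned to these copies differed so much. How far the assignment of reads shaped that difference was not tested. The 250 bases before an annotated start of each gene, from RefSeq on GRCm38.p6 and on the minus strand, read 5′ to 3′ as follows, with the letters TATAAA in capitals (chr15:75048838-75049087 for Ly6c1 and chr15:75111972-75112221 for Ly6c2).
Ly6c1: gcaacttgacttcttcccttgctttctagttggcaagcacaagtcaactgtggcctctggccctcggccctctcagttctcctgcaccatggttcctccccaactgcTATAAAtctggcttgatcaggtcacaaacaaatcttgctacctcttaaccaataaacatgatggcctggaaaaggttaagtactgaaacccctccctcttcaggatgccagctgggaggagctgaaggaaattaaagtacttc
Ly6c2: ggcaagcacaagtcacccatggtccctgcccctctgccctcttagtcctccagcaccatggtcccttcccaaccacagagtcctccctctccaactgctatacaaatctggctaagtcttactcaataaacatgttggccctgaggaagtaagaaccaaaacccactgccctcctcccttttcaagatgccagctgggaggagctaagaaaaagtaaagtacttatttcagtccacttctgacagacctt
TATAAA occurs in the printed Ly6c1 window, with its first base at -143 from that start, and not in that of Ly6c2. The window of another annotated Ly6c1 start (chr15:75048664-75048913) lacks it too. Whether these letters bear on the levels was not tested. On either strand TATAAA occurs in 12.4% of 32851 such windows. It also occurs in windows of Ly6f and Ly6g, which had at most 2 counts in any library. The CArG box, the site that serum response factor binds, was searched by its letters on both strands. It occurs in 1.47% of all windows and in 0 of the 8 windows available for 5 cluster genes. At that share 8 windows are too few to show an absence, and a box outside the 250 bases would be missed. Of the 9 genes followed here only Ly6c1 had a window, so Lynx1 was not searched.

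The stretch of chromosome 15 around Mrtfa was then read as a whole, since the cluster lies in it. Within 10 Mb of Mrtfa 258 genes were tested. Of the 257 other than Lynx1, edgeR called 0, DESeq2 called 7 (2.72%, against 3.32% of all tested genes), and 21 higher and 20 lower genes had an unadjusted edgeR p under 0.05 (15.95%, against 17.3% of all). Their median log2 fold change was -0.02, beside 0.01 over all tested genes. Both shares were near those of all tested genes.

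Within 1 Mb of Lynx1 14 other genes were tested. Of these, 0 passed in edgeR, 0 passed in DESeq2 and 1, Them6, had an unadjusted p under 0.05, which 17.3% of all tested genes had. DESeq2 gave some of them no adjusted p, Them6, Psca and Arc among them, so these could not pass there. Jrk, a gene of the DNA-binding jerky family 45.6 kb away, was at 9.35 and 11.1 CPM in double knockout hearts, against 8.49 and 6.71 CPM in WT hearts (log2 fold change 0.42, SE 0.205; edgeR adjusted p = 0.355). Arc, an immediate early gene of neurons 78.8 kb away, had 7 and 8 counts in the double knockout libraries, against 16 and 4 counts in the WT libraries, with overlap.

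The 7 DESeq2 calls in the region were Mrtfa and 6 others spread over it. Cyc1, cytochrome c1 of respiratory complex III, was at 185 and 189 CPM in double knockout hearts, against 284 and 267 CPM in WT hearts (DESeq2 adjusted p = 0.00824). Mb, the oxygen store myoglobin, was at 1909 and 1656 CPM in double knockout hearts, against 2983 and 3089 CPM in WT hearts (DESeq2 adjusted p = 1.42e-04). These were the lower ones, and both groups were apart in each.

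On the higher side, Tef, a transcription factor of the clock-controlled PAR bZIP family, was at 140.8 and 144 CPM in double knockout hearts, against 58.9 and 80.8 CPM in WT hearts (DESeq2 adjusted p = 1.14e-04). Maf1, a repressor of RNA polymerase III, was at 77.6 and 100.6 CPM in double knockout hearts, against 56.0 and 59.7 CPM in WT hearts (0.0489). Csdc2, a cold shock domain RNA-binding protein, was at 5.85 and 7.53 CPM in double knockout hearts, against 1.48 and 2.97 CPM in WT hearts (0.0113). Tbc1d22a, of a family of Rab regulators, was at 34.4 and 36.6 CPM in double knockout hearts, against 20.4 and 23.8 CPM in WT hearts (0.0193). Each had its groups apart, none passed in edgeR, and the calls went both ways.

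**Figure D3:**
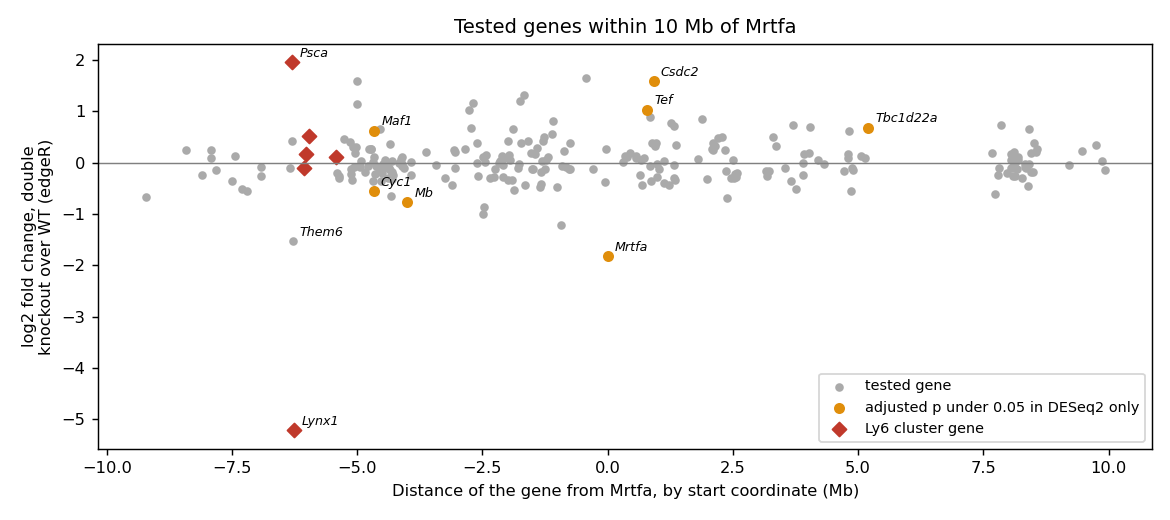
Log2 fold change in edgeR, double knockout over WT, against distance from Mrtfa in Mb for the 258 tested genes within 10 Mb; diamonds are Ly6 cluster genes and orange points passed in DESeq2 alone. Lynx1 at -5.22 lies below every other point, of which the next lowest is Mrtfa at -1.82.

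Of 21 Ly6 family genes elsewhere in the genome 4 had enough reads for the test. DESeq2 called 1 of the 4, beside 3.32% of all tested genes, and edgeR called 0, beside 0.075% of all tested genes. Cd59a, a Ly6-fold protein that protects cells from complement, was at 14.7 and 12.2 CPM in double knockout hearts, against 25.6 and 25.0 CPM in WT hearts. Both groups were tight and apart. The log2 fold change was -0.91 with an SE of 0.149, which DESeq2 called (adjusted p = 0.00194) and edgeR did not (adjusted p = 0.121). Plaur, the urokinase receptor, was at 3.14 and 5.69 CPM in double knockout hearts, against 5.36 and 4.50 CPM in WT hearts, and Lypd6 at 3.70 and 2.75 CPM in double knockout hearts, against 2.50 and 2.57 CPM in WT hearts. Lypd6b was at 0.564 and 0.612 CPM in double knockout hearts, against 0.458 and 0.683 CPM in WT hearts. None of these 3 passed, and the median log2 fold change over the 4 genes was -0.07. Lypd6b had no adjusted p in DESeq2, so it could not pass there.

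Nicotinic receptor subunits, the known partners of LYNX1, were sparse. Of 16 subunit genes 3 were tested, and 0 passed in edgeR, 0 had an unadjusted p under 0.05 and 0 passed in DESeq2. The shares of all tested genes were 0.075%, 17.3% and 3.32% in that order, and 3 genes are too few to set against them. DESeq2 gave Chrna2 and Chrnb2 no adjusted p, so they could not pass there. Chrnb1, the muscle beta subunit, was at 5.64 and 4.77 CPM in double knockout hearts, against 5.004 and 3.70 CPM in WT hearts, with overlap (log2 fold change 0.26, SE 0.245; edgeR adjusted p = 0.623). Chrnb2 was at 0.917 and 0.734 CPM in double knockout hearts, against 0.881 and 0.764 CPM in WT hearts. Chrna2 was at 0.705 and 0.306 CPM in double knockout hearts, against 0.740 and 0.804 CPM in WT hearts. The 16 genes together summed to 8.32 and 6.42 CPM in double knockout hearts, against 7.65 and 6.11 CPM in WT hearts.

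Because Ly6e and Ly6a respond to interferon, interferon response genes were read beside them. Of 24 genes 23 were tested. EdgeR called 0, and DESeq2 called 1 higher, beside 3.32% of all tested genes. At an unadjusted edgeR p under 0.05 there were 2 higher and 0 lower, a smaller share than the 17.3% of all tested genes. Their median log2 fold change was 0.12, beside 0.01 over all genes. The DESeq2 call was Xaf1, an interferon-induced antagonist of apoptosis inhibitors, at 24.6 and 21.9 CPM in double knockout hearts, against 6.84 and 9.16 CPM in WT hearts (log2 fold change 1.54, SE 0.193; edgeR adjusted p = 0.0957; DESeq2 adjusted p = 3.26e-07). The other one at an unadjusted p under 0.05 was Ifih1, a sensor of viral RNA, at 10.5 and 10.8 CPM in double knockout hearts, against 5.64 and 7.51 CPM in WT hearts (edgeR adjusted p = 0.194). Irf7, the interferon regulator, was at 3.81 and 5.20 CPM in double knockout hearts, against 2.47 and 3.34 CPM in WT hearts. Rsad2, another interferon-induced antiviral gene, was at 7.93 and 8.14 CPM in double knockout hearts, against 9.13 and 12.8 CPM in WT hearts. Neither passed. The whole list summed to 260 and 246 CPM in double knockout hearts, against 201 and 256 CPM in WT hearts.

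Markers of the cell types that carry Ly6 proteins were read in the same way. Endothelial markers summed to 2487 and 2673 CPM in double knockout hearts, against 2593 and 2692 CPM in WT hearts. Of 15 tested, edgeR and DESeq2 called 0. At an unadjusted p under 0.05, which 17.3% of all tested genes had, Vwf was the 1 higher gene, at 77.3 and 92.6 CPM in double knockout hearts, against 59.9 and 65.3 CPM in WT hearts, and Kdr the 1 lower gene, at 215 and 194 CPM in double knockout hearts, against 290 and 265 CPM in WT hearts. Leukocyte markers summed to 74.1 and 49.98 CPM in double knockout hearts, against 59.1 and 58.6 CPM in WT hearts. Of 9 tested, 0 passed in either tool and 0 had an unadjusted p under 0.05, beside 17.3% of all tested genes. The part of these cells in the level of Ly6c1 and Ly6a was not tested.

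Neuron and Schwann cell markers summed to 53.7 and 56.5 CPM in double knockout hearts, against 54.6 and 57.4 CPM in WT hearts. Chat and Slc18a3, which define cholinergic neurons, had no read in any library. Of 6 tested, 0 passed in edgeR or DESeq2. Gap43, a growth cone protein, was the 1 gene of the 6 at an unadjusted p under 0.05, a share near the 17.3% of all tested genes, at 3.17 and 3.18 CPM in double knockout hearts, against 5.89 and 6.47 CPM in WT hearts (log2 fold change -0.96, SE 0.207; edgeR adjusted p = 0.153). Among epithelial and keratinocyte markers Krt5 and Krt6a had no read, and the list summed to 255 and 239 CPM in double knockout hearts, against 308 and 293 CPM in WT hearts. Nearly all of that was Perp, a desmosome gene, at 252 and 235 CPM in double knockout hearts, against 305 and 290 CPM in WT hearts (edgeR adjusted p = 0.263). Of the 4 tested, 0 passed in edgeR or DESeq2, and Perp was the 1 with an unadjusted p under 0.05, beside 17.3% of all tested genes. Krt14, Trp63 and Sfn had no adjusted p in DESeq2, so they could not pass there.

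The 5 genes whose levels ran most like those of Lynx1 were sought over all chromosomes. Likeness was the distance between log2 CPM profiles over the 4 libraries, each centred on its own mean, among 11153 genes with a mean of at least 5 CPM, so it mostly picks genes that were also far lower in double knockout hearts. The nearest, at a distance of 1.58, was Acta1, skeletal alpha-actin, on chromosome 8. It was at 3.35 and 6.85 CPM in double knockout hearts, against 149 and 63.5 CPM in WT hearts. Next came Gm28438, an annotated pseudogene on chromosome 1, at 0.141 and 0.306 CPM in double knockout hearts, against 29.1 and 34.6 CPM in WT hearts. Gm14267, a transcribed pseudogene on chromosome 2, stood at 0.635 and 0.918 CPM in double knockout hearts, against 9.90 and 8.60 CPM in WT hearts.

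The other two were 2610507I01Rik and Eif3j1. The non-coding 2610507I01Rik on chromosome 11 was at 0.705 and 0.122 CPM in double knockout hearts, against 14.7 and 18.5 CPM in WT hearts. Eif3j1 on chromosome 2, a subunit of a translation initiation complex with a near-identical copy, Eif3j2, that leaves the split of reads uncertain, was at 0.811 and 0.795 CPM in double knockout hearts, against 10.4 and 8.76 CPM in WT hearts. Acta1 was higher in WT library 1, while Lynx1 was higher in WT library 2.

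**Figure D4:**
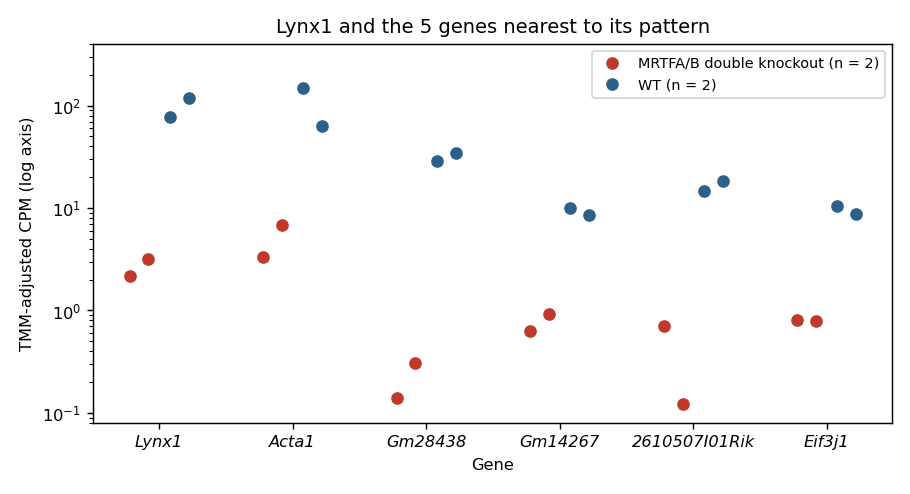
Levels in TMM-adjusted CPM on a log axis for Lynx1 and the 5 genes nearest to its pattern; each point is 1 library. In each gene both double knockout libraries lie below both WT libraries, from 3.35 and 6.85 against 149 and 63.5 CPM in Acta1 to 0.811 and 0.795 against 10.4 and 8.76 CPM in Eif3j1.

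Across 15 other ways of scaling, filtering, testing or leaving out a library, the log2 fold change of Lynx1 stayed between -5.49 and -4.87. That of Ly6e ran from -0.25 to 0.04 and that of Ly6a from 0.05 to 0.29, and neither passed under any of them. That of Gpihbp1 ran from -0.02 to 0.22, also without passing.

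**Figure D5:**
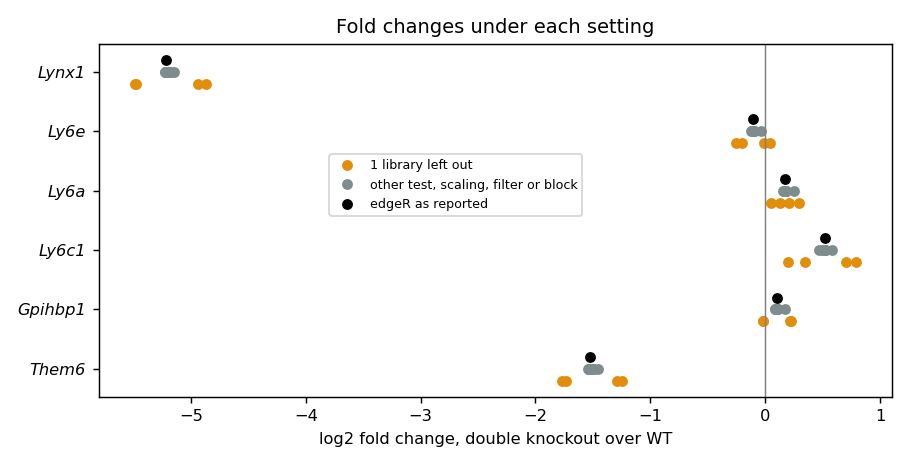
Log2 fold change, double knockout over WT, of 6 genes under each setting: edgeR as reported in black, other tests, scalings, filters and blocks in grey, and fits with 1 library left out in orange. Lynx1 keeps between -5.49 and -4.87, while Ly6c1 moves between 0.20 and 0.79 with the library left out.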

How the data were processed

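Each deposited file holds the raw, unscaled gene counts of 1 library. The authors made these counts with HTSeq on build mm10, per the submitters' processing notes, which also name DESeq 1.10.1. The sources used here do not name the aligner, annotation release, strand setting or treatment of multiply mapped reads. Each file has 43346 identifiers, of which 42462 matched GENCODE M21 once the version was stripped, and 0 rows that name no gene.

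The test was edgeR 4.0.16's quasi-likelihood test in R 4.3.3, with filterByExpr, TMM factors, robust estimation, no covariate, all 4 libraries and Benjamini-Hochberg adjustment over 16009 genes. DESeq2 1.42.0 and limma-voom (limma 3.58.1) were alternatives, and the scripts were tested on simulated data. DESeq2 gave no adjusted p to some tested genes of low count, and its shares count these as not called. Intervals are the fold change plus or minus the t quantile times SE. Between groups, log CPM correlated at 0.970 to 0.981 across genes, against 0.978 in the double knockout pair and 0.992 in the WT pair.

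The members and gene lists were chosen with earlier results of these data known. Named were all cluster genes, the 4 tested genes on each side of Lynx1, region genes past either threshold, up to 4 genes of each list by smallest edgeR p, and 5 genes with the nearest pattern. Marker genes that this rule picks but that missed an unadjusted p of 0.05 are given only within their list's sum.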

Additional observations from a re-analysis of the deposited data

How the results depend on the processing

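The number of genes past an adjusted p of 0.05, 12 in edgeR, was 532 in DESeq2 and 1514 without the count filter. With 1 library left out it ran from 2 (without WT library 1) and 3 (without WT library 2) to 1364 and 2795 without double knockout library 2 or 1; the cause was not tested. With all 4 libraries kept, 0 cluster members other than Lynx1 passed in edgeR. Without the filter 1 did, which was Slurp1 (edgeR adjusted p = 0.0147). Fits with 1 library left out have no replicate in 1 group. The log2 fold change of Ly6c1 ran from 0.20 to 0.79 in those fits, and whether it passed there is not given. Other genes within 10 Mb of Mrtfa, 0 in edgeR, numbered 7 in DESeq2, 23 without the filter and 0 to 38 with a library left out. The region's counts rose in settings where those over all genes also rose, as without the filter, where 1514 of 24928 genes passed. The same held with either double knockout library left out. Whether the region's share differed from that of all genes in those settings was not tested. Psca passed without the filter (adjusted p = 0.0492), as did Them6 (0.0215).

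With a replicate block 2 genes passed over all genes, and 0 members other than Lynx1. The libraries share only a number: deviations of libraries numbered 1 correlated at r = -0.105, and a crossed pairing, added after seeing the data, left 3 calls. With all 4 libraries kept, no other setting changed a call among the genes listed for the cluster other than Lynx1, whose calls are not given. Of the 9 members 5 had too few reads for the test, 4 of them under 10 counts in every library.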
